A study of Mus musculus with 6 samples.

Results

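The genes described here run protein folding in the endoplasmic reticulum (ER) and the unfolded protein response. They were taken by name from the deposited table: ER chaperones, enzymes of oxidative folding, ER-associated degradation, and the IRE1, ATF6 and PERK arms of the response. The list holds 37 genes of the 55060 in the table, and all 37 were found by name. *Ddit3* stands in the table under 2 identifiers, of which the second is listed at 0 in every sample and was not used.

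Proteins meant for secretion enter the ER unfolded, are glycosylated and folded there by chaperones and disulfide isomerases, and are sent back to the cytosol for degradation when folding fails. When unfolded protein builds up, sensors in the ER membrane respond: IRE1 splices the *Xbp1* mRNA, ATF6 is cleaved into a transcription factor, and PERK phosphorylates eIF2α, which slows translation and raises ATF4. The β cell makes proinsulin in large amounts, which loads its ER heavily, and mutations in the genes of PERK or WFS1 cause diabetes.

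Isolated pancreatic islets of 12-week-old mice on a C57BL/6 background were sequenced, with 3 samples per genotype, Ctrl and cKO. In cKO, exon 7 of *Parn*, which encodes a poly(A)-specific ribonuclease, is flanked by loxP sites and removed by a Cre recombinase under the *Ins2* promoter; Ctrl were *Parn f/f* mice and other littermates. The deletion is limited to cells that express *Ins2*, whereas the islets also hold α, δ, endothelial and other cells whose *Parn* is intact. Which Ctrl samples carried Cre, the sex of the mice and whether animals were pooled are not given in the sources used here.

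Expression is given as the FPKM that the authors deposited, fragments on a gene per kilobase of its length and relative to the library size. The library sizes implied by these values, which are not totals of the reads, lay between 15731223 and 18085944 reads. The reads on genes that could be read back summed to more than this size in each Ctrl sample (16470783 against 15731223 in Ctrl replicate 2) and to less in each cKO sample (16289408 against 17386442 in cKO replicate 2), so FPKM and scales made from the reads themselves differ by genotype. The members together took 1.19%, 1.04% and 0.955% of the reads on genes in Ctrl islets and 1.26%, 1.29% and 1.25% in cKO islets, each in the order of replicates 1, 2 and 3. *Ins1* and *Ins2* took 26.5% to 30.1% of the reads in Ctrl and 22.0% to 24.6% in cKO. Of the reads not on these 2 genes, the members took 1.62%, 1.45% and 1.37% in Ctrl and 1.62%, 1.70% and 1.655% in cKO, with Ctrl replicate 1 at the level of cKO replicate 1. In the sentences below, values of 3 samples keep this order. The labels do not say whether a replicate number links a Ctrl sample to a cKO sample, and no pairing was used in the main fit. Genotypes were compared on log2(FPKM + 1) with limma over the 21211 genes whose mean FPKM reached 0.1, and a fold change is cKO minus Ctrl on this log2 scale, given with its standard error (SE). All 37 members passed this filter, with mean FPKM from 2.78 (*Trib3*) to 296 (*Hspa5*). The fewest reads behind a member in any sample were 64, on *Trib3*, and the next fewest 124, on *Chac1*. The p-values measure only the spread between these 6 samples. In islets, a gene with less RNA per cell and a gene whose cells are fewer cannot be told apart.

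The targeted gene had an FPKM of 6.64, 8.34 and 7.38 in Ctrl islets and 4.97, 4.61 and 6.155 in cKO islets. Each cKO sample lay below each Ctrl sample, with a log2 fold change of -0.44 ± 0.131 (SE, limma unadjusted p = 0.0135) and an exact two-sided permutation p = 0.1, the smallest that 3 samples against 3 can give.

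The markers of β cells were present in every sample. *Ins2* had an FPKM of 154877, 170487 and 178676 in Ctrl islets and 109030, 124186 and 132945 in cKO islets. *Iapp*, islet amyloid polypeptide, had 17011, 23853 and 20792 in Ctrl islets and 14109, 14450 and 13486 in cKO islets. In *Ins2* and *Iapp* each cKO sample lay below each Ctrl sample. *G6pc2*, an islet glucose-6-phosphatase, had 1092, 1266 and 992 in Ctrl islets and 1428, 1476 and 1422 in cKO islets, with each cKO sample above each Ctrl sample. *Pdx1* was between 56.1 and 85.8 and *Ucn3* between 155.7 and 298. Of the 9 β-cell markers, 0 were higher and 1 lower at an unadjusted p under 0.05, *Ucn3*, with a log2 fold change of -0.58 ± 0.2045 (SE, limma unadjusted p = 0.0265). The SE of *Ins2* was large in this fit, with a log2 fold change of -0.46 ± 2.87 (SE, limma unadjusted p = 0.877). By voom *Ins2* had -0.38 (limma unadjusted p = 0.00789), *Iapp* -0.45 (limma unadjusted p = 0.00639) and *G6pc2* 0.46 (limma unadjusted p = 0.00272). Markers of δ cells (0 of 2), of PP cells (0 of 1), of duct cells (1 of 4 higher, *Cftr*, and 1 lower, *Krt7*), of endothelial cells (2 of 5 higher) and of stroma (1 of 5 higher) were present as well, though *Cftr* was at 0 in Ctrl replicate 3. Among markers of B and plasma cells 1 of 11 was lower, *Cd79a*, and of macrophages (6), T cells (5), red cells (3) and dividing cells (4) 0 passed in either direction.

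Ctrl replicate 1 stood apart from the other 5 samples. Its macrophage markers summed to an FPKM of 769.6 against 99.15 to 193.8 in the others, its red cell markers to 1101 against 167.3 to 217.7, and its markers of dividing cells to 10.2 against 1.35 to 2.86. Results are therefore given with and without it where it matters. The 12 acinar markers, from digestive enzyme genes, had summed FPKM of 18111, 24800 and 9613 in Ctrl islets and 43134, 11396 and 35408 in cKO islets. All 12 had a log2 fold change above 0, with a median of 0.68, and 0 passed an unadjusted p under 0.05. The most abundant, *Ctrb1*, had an FPKM of 4453, 8514 and 2915 in Ctrl islets and 13984, 3845 and 11924 in cKO islets, and none of the 12 was at 0 in any sample. The 11 markers of B and plasma cells summed to 435, 98.2 and 175 in Ctrl islets and 159.5, 269 and 273 in cKO islets, with *Igkc* the most abundant and *Tnfrsf17* at 0 in Ctrl replicate 2 and cKO replicate 1. Acinar and plasma cells also carry a large ER. The acinar level is set beside the members below, and the part of the B and plasma cell markers in the results was not tested.

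Of the 37 members, 9 (24.3%) were higher in cKO at an unadjusted p under 0.05, against 4.33% of all genes tested (919). In the other direction, 1 member (2.70%) was lower, against 3.07% of all genes (651). The 9 were *Derl3*, *Edem1*, *Hyou1*, *Ssr1*, *Ern1*, *Atf6*, *Wfs1*, *Calr* and *Sel1l*, and the 1 lower was *Asns*. In 11 members (29.7%) every cKO sample lay above every Ctrl sample, against 7.11% of all genes, and in 0 members did every cKO sample lie below, against 6.03%. The log2 fold change was above 0 in 30 members (81.1%), against 46.5% of all genes. The median over the members was 0.25, against -0.01 over all genes. With Benjamini-Hochberg adjustment over all genes, limma called 0 members and 0 genes at an adjusted p under 0.05, beside the 9 and 1 members above at an unadjusted p. The smallest adjusted p was 0.414 among the members (*Edem1*, log2 fold change 0.48, with 3 of 3 cKO samples above the Ctrl samples) and 0.274 among all genes. By voom in limma, on reads read back from FPKM, 2 genes and 0 members had an adjusted p under 0.05, and 14 members were higher (37.8%, against 7.07% of all genes) and 0 lower at an unadjusted p under 0.05. Voom with the library sizes of the authors, chosen after seeing the data, called 0 genes at an adjusted p, with 9 members higher (against 4.61% of all genes) and 1 lower (against 2.84%) at the unadjusted p. With Ctrl replicate 1 left out, limma with Benjamini-Hochberg adjustment called 1 gene, which was not a member.

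The number of members called depended on single samples. In the fit without Ctrl replicate 1 it was 14 higher (37.8%, against 5.90% of all genes) and 2 lower, *Asns* and *Trib3* (5.53% of all genes lower). Without Ctrl replicate 2 it was 3 higher (8.11%, against 3.34%) and 0 lower. Without Ctrl replicate 3 it was 5 higher (13.5%, against 3.82%) and 1 lower, *Derl2* in place of *Asns*. Without cKO replicate 1 it was 3 higher (8.11%, against 4.11%) and 0 lower, and without cKO replicate 2 it was 7 higher (18.9%, against 3.60%) and 1 lower, *Atf4*. Without cKO replicate 3 it was 6 higher (16.2%, against 3.60%) and 0 lower. The median of the members was 0.32 without Ctrl replicate 1 and 0.11 without Ctrl replicate 3. The counts differed between scales too. Among all genes called at that p, 58.5% were higher on FPKM, 85.1% on TPM and 82.1% by voom, and the median of all genes moved from -0.01 to 0.08 on TPM and 0.07 by voom. On TPM 16 members were higher (43.2%, against 8.49% of all genes) and 0 lower, with a median of 0.39, which is 0.31 above that of all genes, where on FPKM the difference is 0.27. On TPM computed without *Ins1* and *Ins2*, 8 members were higher (21.6%, against 3.88% of all genes) and 0 lower (against 2.41%), 61.6% of the genes called were higher, and the median of the members was 0.26.

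**Figure D1:**
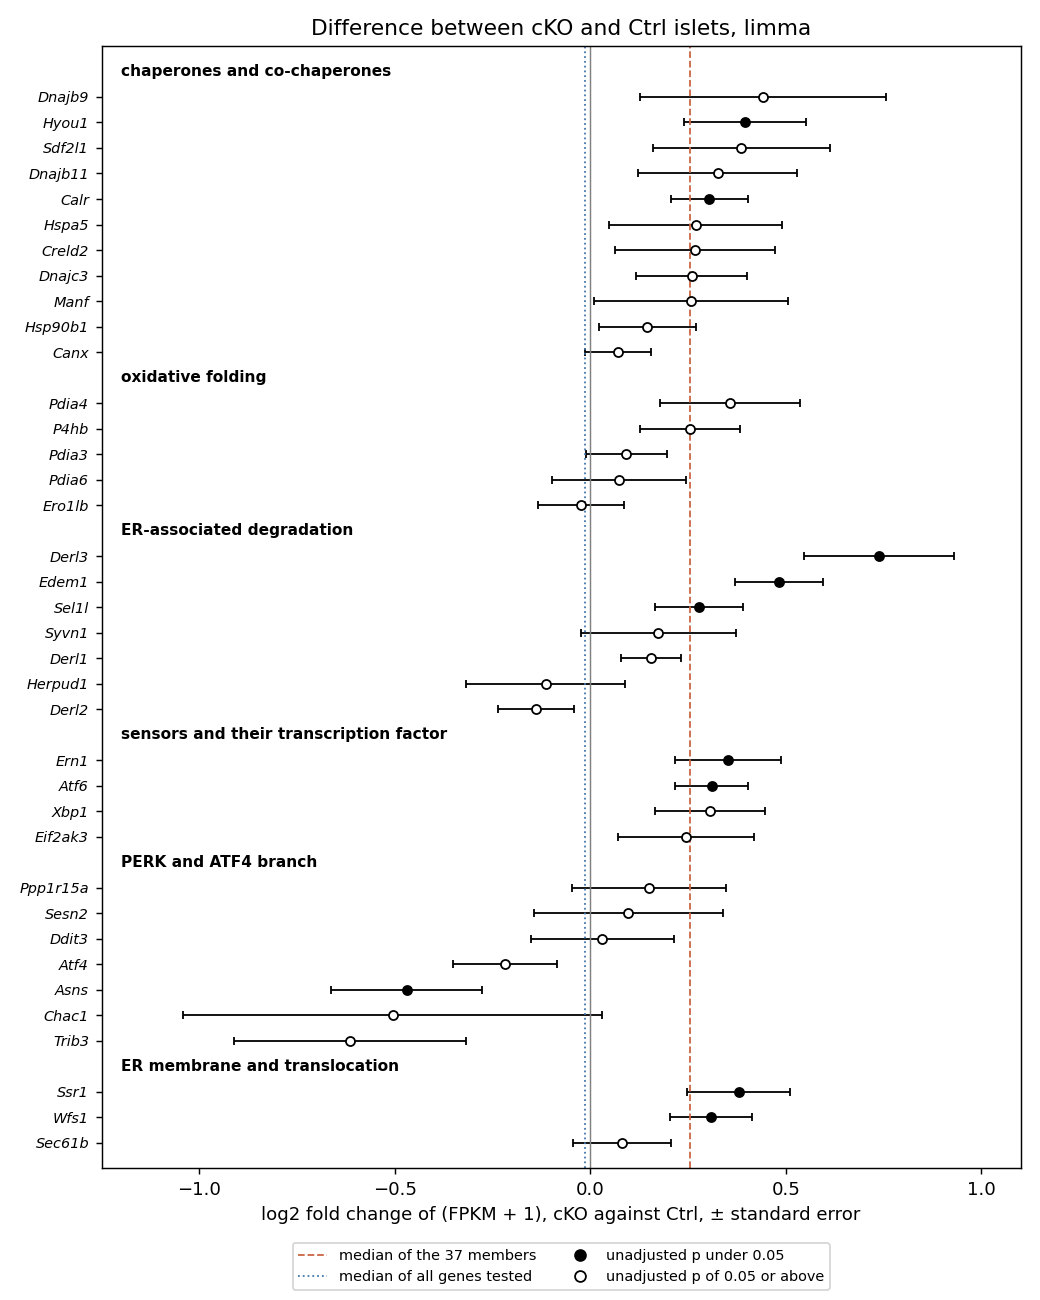
Log2 fold change of each of the 37 members, cKO minus Ctrl on log2(FPKM + 1), with its standard error, grouped by role; lines mark the medians of the members (0.25) and of all genes tested (-0.01). The chaperones lie right of 0 and the ATF4 targets *Trib3*, *Chac1* and *Asns* furthest to the left.

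The chaperones and co-chaperones of the ER lumen (11 members) all had a log2 fold change above 0, from 0.07 to 0.44 with a median of 0.27, and 2 passed an unadjusted p under 0.05. Their summed FPKM was 1435, 1187 and 947 in Ctrl islets and 1373, 1463 and 1431 in cKO islets. Counts in this and the following groups can be read against 4.33% higher and 3.07% lower among all genes, with 46.5% above 0. Every cKO sample lay above every Ctrl sample in 7.11% of all genes. The shares higher and lower were 5.90% and 5.53% without Ctrl replicate 1, and 3.82% and 4.04% without Ctrl replicate 3. They were 8.49% and 1.5% on TPM, 7.07% and 1.55% by voom, and 3.64% and 2.37% with the acinar covariate. Without Ctrl replicate 1, 8 of the 11 passed as higher and the median was 0.47. With Ctrl replicate 3 left out 1 passed, the median was 0.10, and *Manf* was at -0.02. On TPM 5 passed with a median of 0.41, and by voom 3 with 0.36. With the acinar level as a covariate, chosen after seeing the data, 0 passed and the median was 0.23. The sum was lowest in Ctrl replicate 3, whereas Ctrl replicate 1 lay within the range of the cKO samples.

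*Hspa5* (ENSMUSG00000026864, chromosome 2) encodes BiP, the HSP70 of the ER, which binds unfolded chains and holds the 3 sensors inactive. Its FPKM was 351.5, 272 and 193 in Ctrl islets and 301, 342 and 315 in cKO islets. The cKO samples were close together and the Ctrl samples spread widely on either side, with replicate 1 above all cKO samples and replicate 3 well below them. The mean was 272 ± 79.2 in Ctrl and 319 ± 21.3 in cKO (SD, n = 3). Its log2 fold change came to 0.27 ± 0.222 (SE, limma unadjusted p = 0.268), it was 0.47 without Ctrl replicate 1 (limma unadjusted p = 0.0446) and 0.04 without Ctrl replicate 3 (limma unadjusted p = 0.7905). *Calr* (ENSMUSG00000003814, chromosome 8) encodes calreticulin, a lectin chaperone that binds calcium and newly glycosylated proteins. Its FPKM was 210.4, 194 and 190.1 in Ctrl islets and 256, 233.5 and 245 in cKO islets. Here the groups did not overlap and the samples of each genotype were close together. The mean was 198 ± 10.7 in Ctrl and 245 ± 11.2 in cKO (SD, n = 3), a log2 fold change of 0.30 ± 0.0990 (SE, limma unadjusted p = 0.0198). Leaving out 1 sample at a time gave 0.27 to 0.35, with a p under 0.05 in 3 of 6 cases, and the call was lost without Ctrl replicate 2, cKO replicate 1 or cKO replicate 3. *Hyou1* (ENSMUSG00000032115, chromosome 9), the large HSP110-type partner that exchanges the nucleotide of BiP, had an FPKM of 91.8, 72.4 and 61.7 in Ctrl islets and 106, 90.7 and 98.2 in cKO islets. Ctrl replicate 1 lay above cKO replicate 2, and the other Ctrl samples below every cKO sample. This gave a log2 fold change of 0.40 ± 0.156 (SE, limma unadjusted p = 0.0413), with 0.55 (limma unadjusted p = 0.00479) without Ctrl replicate 1 and 0.26 (limma unadjusted p = 0.109) without Ctrl replicate 3. It passed in 1 of the 6 cases with a sample left out, that without Ctrl replicate 1.

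*Dnajb9* (ENSMUSG00000014905, chromosome 12), a J-domain partner of BiP that is a classic target of spliced XBP1, had an FPKM of 139, 92.9 and 61.03 in Ctrl islets and 121, 162 and 102 in cKO islets. The range was wide in both genotypes and they overlapped, since Ctrl replicate 1 was the second highest of the 6 samples. The difference on the log2 scale was 0.44 ± 0.315 (SE, limma unadjusted p = 0.2065). *Sdf2l1* (ENSMUSG00000022769, chromosome 16), which works with ER J-domain proteins to keep unfolded chains from clumping, had an FPKM of 122, 93.8 and 66.8 in Ctrl islets and 107, 115 and 139 in cKO islets. Again Ctrl replicate 1 lay among the cKO samples and Ctrl replicate 3 far below, and the log2 fold change was 0.39 ± 0.226 (SE, limma unadjusted p = 0.136). With Ctrl replicate 1 left out, *Dnajb9* had a log2 fold change of 0.73 (limma unadjusted p = 0.0403) and *Sdf2l1* of 0.59 (limma unadjusted p = 0.0277). With Ctrl replicate 3 left out, *Dnajb9* had 0.15 (limma unadjusted p = 0.605) and *Sdf2l1* 0.16 (limma unadjusted p = 0.390).

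The other 6 chaperones did not pass with all samples in the fit. *Hsp90b1*, which encodes GRP94, had a log2 fold change of 0.15 ± 0.1235 (SE, limma unadjusted p = 0.280). That of *Canx*, the membrane-bound lectin chaperone calnexin, was 0.07 ± 0.0841 (SE, limma unadjusted p = 0.435), the smallest of the 11. The J-domain proteins *Dnajb11* and *Dnajc3*, of which the latter is the PERK inhibitor p58IPK, had 0.33 and 0.26. *Manf*, a secreted ER-resident factor that supports β-cell survival, had 0.26, and *Creld2*, a small isomerase-like ER protein, 0.27. The p-values of these 4 were 0.158, 0.113, 0.3375 and 0.235. In the fit without Ctrl replicate 1, *Dnajb11* had 0.51 (limma unadjusted p = 0.0327), *Dnajc3* 0.39 (limma unadjusted p = 0.0179) and *Creld2* 0.47 (limma unadjusted p = 0.0240), and the other 3 did not pass. In that without Ctrl replicate 3, *Dnajb11* had 0.10 (limma unadjusted p = 0.420), *Dnajc3* 0.13 (limma unadjusted p = 0.295) and *Creld2* 0.05 (limma unadjusted p = 0.714).

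The Ctrl samples differed from each other in the chaperones more than in most genes. The median within-group SD of log2(FPKM + 1) over the 11 chaperones was 0.42 in Ctrl and 0.10 in cKO, where it was 0.17 and 0.13 over all genes. The Ctrl SD was the larger in 10 of the 11, against 61.8% of all genes. Ctrl replicate 3 was the lowest of the 6 samples in 10 of 11 chaperones and in 22 of the 37 members (59.5%), where it was the lowest in 19.1% of all genes. As a deviation from each gene's mean over the 6 samples, the median of the chaperones was 0.20, -0.11 and -0.56 in Ctrl and 0.05, 0.14 and 0.16 in cKO. The cKO samples thus lay between the highest and the lowest Ctrl sample. What set Ctrl replicates 1 and 3 apart was not tested.

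**Figure D2:**
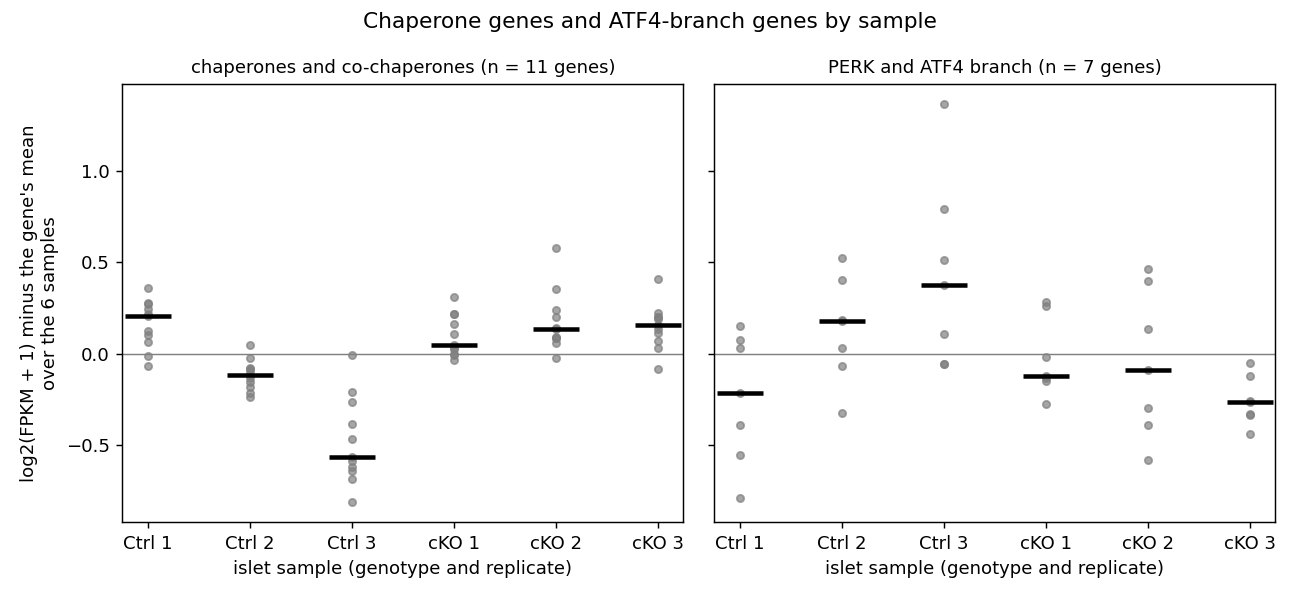
Deviation of log2(FPKM + 1) from each gene's mean over the 6 samples, for the 11 chaperones and the 7 members of the PERK and ATF4 branch, with 1 point per gene and sample and lines at the medians. The median of the chaperones is 0.20 in Ctrl replicate 1 and -0.56 in Ctrl replicate 3, and that of the ATF4 branch -0.21 and 0.38 in the same samples.

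Enzymes of oxidative folding (5 members) catalyse the disulfide bonds that proinsulin needs. Of these 0 passed an unadjusted p under 0.05, although in 2 every cKO sample lay above every Ctrl sample, *P4hb* and *Pdia4*, named after their values were seen. Among all genes 4.33% passed as higher, and in 7.11% every cKO sample lay above. The median log2 fold change of the 5 was 0.09. Without Ctrl replicate 1 the group had 1 higher with a median of 0.18, without Ctrl replicate 3 it had 0 with 0.09, and on TPM 2 with 0.23. *P4hb* (ENSMUSG00000025130, chromosome 11), the main protein disulfide isomerase, had an FPKM of 253, 256 and 239 in Ctrl islets and 312.5, 257 and 328 in cKO islets. Ctrl replicate 2 and cKO replicate 2 were almost equal, and the other cKO samples stood well above. The log2 fold change was 0.25 ± 0.128 (SE, limma unadjusted p = 0.0907). *Pdia4* (ENSMUSG00000025823, chromosome 6), a multi-domain disulfide isomerase, had an FPKM of 72.2, 62.9 and 44.3 in Ctrl islets and 73.6, 79.4 and 73.1 in cKO islets. The gap between the groups was narrow, at Ctrl replicate 1, and Ctrl replicate 3 was again the lowest. That is a log2 fold change of 0.36 ± 0.178 (SE, limma unadjusted p = 0.0887). *Pdia3* (0.09) and *Pdia6* (0.07), isomerases that work with calnexin and with BiP, overlapped between the genotypes, and *Ero1lb*, the oxidase enriched in islets that reoxidizes the isomerases, had a log2 fold change of -0.02 ± 0.110 (SE, limma unadjusted p = 0.834) with a mean FPKM of 283 ± 9.99 in Ctrl and 279 ± 21.9 in cKO (SD, n = 3). On TPM the value of *Ero1lb* was 0.11, so its sign depends on the scale.

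Members of ER-associated degradation (7 members), which pull misfolded proteins out of the ER for the proteasome, held the 2 largest positive log2 fold changes of the list, *Derl3* and *Edem1*. Of these 7, 3 were higher at an unadjusted p under 0.05, against 4.33% of all genes. In 4 every cKO sample lay above every Ctrl sample, against 7.11%, and the median was 0.17. With Ctrl replicate 1 left out the group had 2 higher with a median of 0.24, without Ctrl replicate 3 it had 3 higher and 1 lower with 0.11, and on TPM 4 higher with 0.31. *Edem1* (ENSMUSG00000030104, chromosome 6) encodes a mannosidase-like protein that marks misfolded glycoproteins for disposal and is a target of spliced XBP1. Its FPKM was 17.15, 18.6 and 16.5 in Ctrl islets and 28.7, 23.02 and 22.8 in cKO islets. The lowest cKO sample stood well above the highest Ctrl sample, and cKO replicate 1 was the highest. The mean was 17.4 ± 1.08 in Ctrl and 24.85 ± 3.34 in cKO (SD, n = 3). Its log2 fold change was 0.48 ± 0.112 (SE, limma unadjusted p = 0.00418), the smallest p of the 37, and it passed in 6 of 6 cases with 1 sample left out, between 0.38 and 0.54. *Derl3* (ENSMUSG00000009092, chromosome 10), a channel-forming Derlin that takes part in the disposal of glycoproteins, had an FPKM of 10.96, 7.88 and 7.78 in Ctrl islets and 18.9, 12.1 and 15.65 in cKO islets. All cKO samples were above all Ctrl samples, with Ctrl replicate 1 the highest of its group. The mean was 8.87 ± 1.81 in Ctrl and 15.5 ± 3.41 in cKO (SD, n = 3). Its log2 fold change came to 0.74 ± 0.192 (SE, limma unadjusted p = 0.00737), the largest rise of the 37, and it passed in 6 of 6 cases with 1 sample left out, between 0.59 and 0.90.

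*Sel1l* (ENSMUSG00000020964, chromosome 12), the scaffold of the HRD1 ubiquitin ligase, had an FPKM of 15, 15.6 and 17.1 in Ctrl islets and 22.6, 17.9 and 18.2 in cKO islets. The groups did not overlap, but only cKO replicate 1 stood clear of the Ctrl range. This gave a log2 fold change of 0.28 ± 0.112 (SE, limma unadjusted p = 0.0456), with 0.24 (limma unadjusted p = 0.114) without Ctrl replicate 1, and it passed in 2 of 6 cases, those without Ctrl replicate 3 and without cKO replicate 2. *Derl1*, a Derlin of the same complex named after its values were seen, did not overlap between the groups. Its log2 fold change was 0.16 ± 0.0778 (SE, limma unadjusted p = 0.0896). *Syvn1*, the ubiquitin ligase HRD1 itself, had 0.17 ± 0.199 (SE, limma unadjusted p = 0.414). *Herpud1*, a membrane protein that gathers the ligase complex, had -0.11 ± 0.204 (SE, limma unadjusted p = 0.594) on FPKM and 0.02 on TPM, where the sign turned. *Derl2* (ENSMUSG00000018442, chromosome 11), a further Derlin, had an FPKM of 14.04, 12.85 and 11.4 in Ctrl islets and 11.01, 11.85 and 11.5 in cKO islets. All cKO samples were below Ctrl replicates 1 and 2 and near Ctrl replicate 3, and the log2 fold change was -0.14 ± 0.0967 (SE, limma unadjusted p = 0.198). On TPM *Derl2* was at -0.01.

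The sensors and XBP1 (4 members) all had log2 fold changes above 0, with a median of 0.31. Of these, 2 passed as higher at an unadjusted p under 0.05, against 4.33% of all genes. In this group 1 passed without Ctrl replicate 1 (median 0.36), 1 without Ctrl replicate 3 (0.22), 3 on TPM (0.45) and 0 with the acinar covariate (0.28). In all 4, cKO replicate 1 was the highest of the 6 samples, as it was in 6 of the 7 members of ER-associated degradation and in 14 of all 37 members (37.8%, against 15.0% of all genes). *Ern1* (ENSMUSG00000020715, chromosome 11) encodes IRE1α, the kinase and endoribonuclease that splices *Xbp1*. Its FPKM was 22.4, 20.9 and 22.6 in Ctrl islets and 34.5, 27.35 and 23.98 in cKO islets. The Ctrl samples were nearly equal, and the cKO samples lay above them at 3 different levels. The log2 fold change was 0.35 ± 0.136 (SE, limma unadjusted p = 0.0383), and 0.37 (limma unadjusted p = 0.0741) without Ctrl replicate 1 and 0.37 (limma unadjusted p = 0.0718) without Ctrl replicate 3. It passed in 1 of 6 cases, that without cKO replicate 3. *Xbp1* (ENSMUSG00000020484, chromosome 11), whose spliced mRNA encodes the active factor, had an FPKM of 106, 109 and 85.65 in Ctrl islets and 136, 107 and 129 in cKO islets. The groups overlapped because cKO replicate 2 lay between Ctrl replicates 1 and 2. On the log2 scale the change was 0.31 ± 0.1402 (SE, limma unadjusted p = 0.0686). FPKM per gene does not tell spliced from unspliced *Xbp1*, so the activity of IRE1 was not measured.

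*Atf6* (ENSMUSG00000026663, chromosome 1) encodes the sensor that is cleaved in the Golgi into a transcription factor for chaperone genes. Its FPKM was 13.02, 12.35 and 10.9 in Ctrl islets and 15.8, 15.6 and 14.25 in cKO islets. Every cKO sample lay above every Ctrl sample, and the spread was small in both genotypes. The mean was 12.1 ± 1.07 in Ctrl and 15.2 ± 0.839 in cKO (SD, n = 3). That is a log2 fold change of 0.31 ± 0.09365 (SE, limma unadjusted p = 0.0145), and it passed in 6 of 6 cases with 1 sample left out, between 0.24 and 0.36. *Eif2ak3* (ENSMUSG00000031668, chromosome 6), which encodes PERK, had an FPKM of 10.3, 8.22 and 7.96 in Ctrl islets and 12.3, 11.8 and 8.11 in cKO islets. The range of the genotypes overlapped, with cKO replicate 3 at the level of the lower Ctrl samples. Its log2 fold change came to 0.25 ± 0.174 (SE, limma unadjusted p = 0.204).

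**Figure D3:**
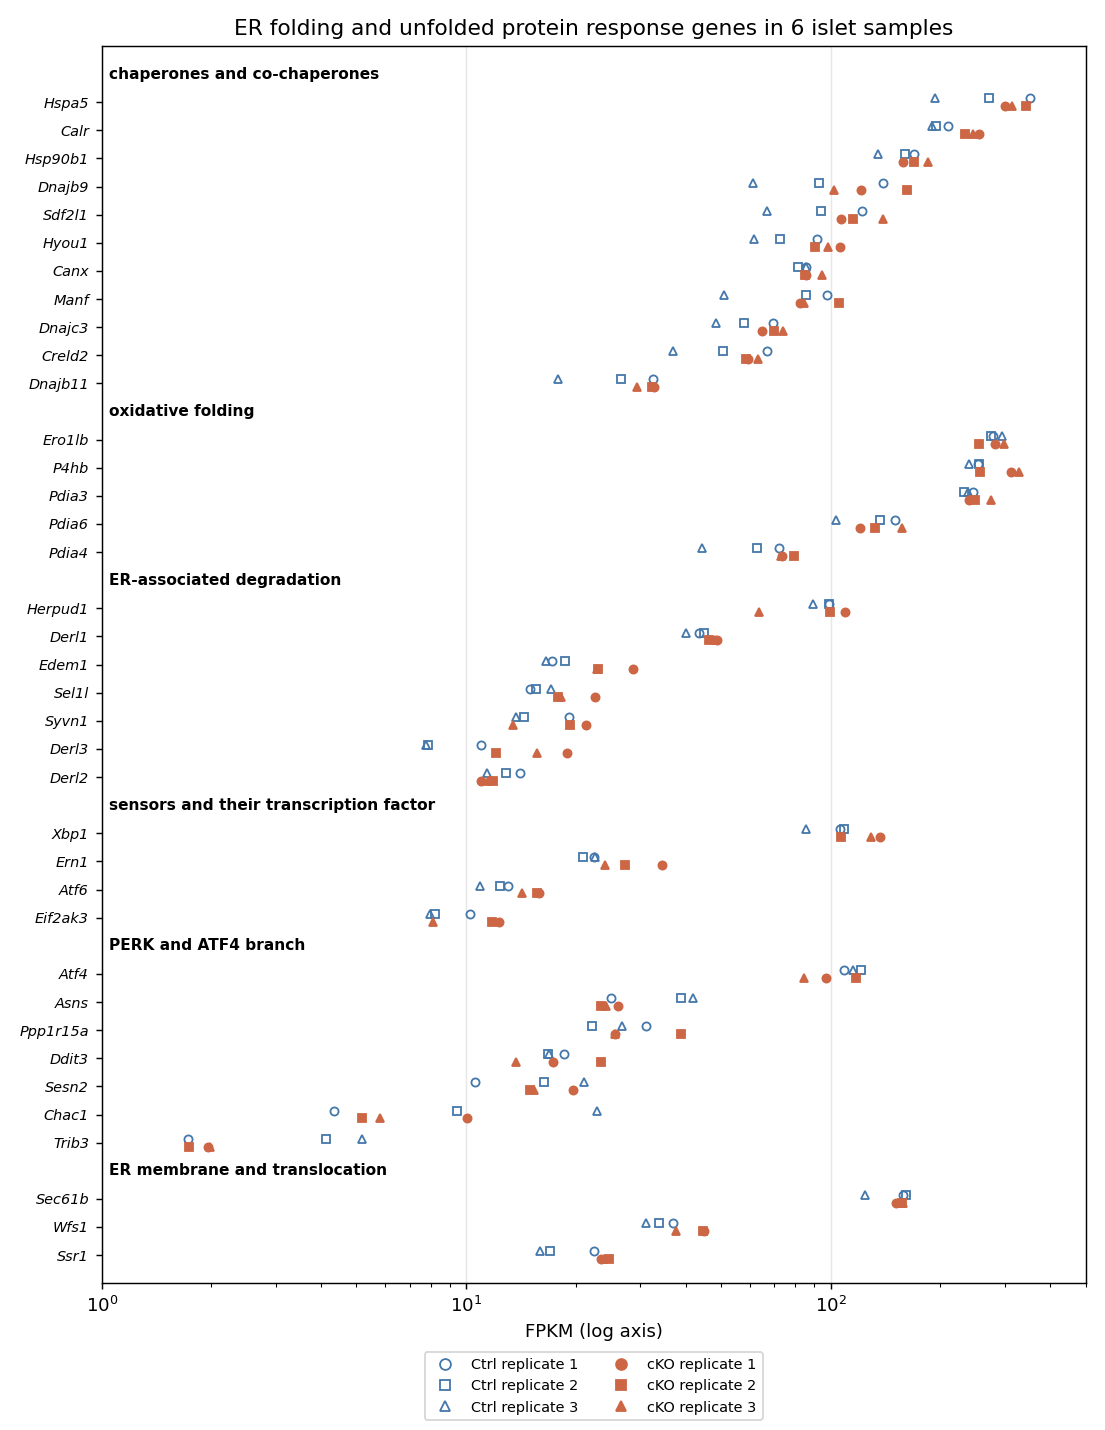
FPKM of the 37 members in each of the 6 islet samples on a log axis, grouped by role, with Ctrl and cKO in different colours and 1 point per sample. *Edem1* (16.5 to 18.6 in Ctrl, 22.8 to 28.7 in cKO) and *Atf6* show groups that do not overlap, and *Chac1* and *Trib3* show the widest spread within Ctrl.

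The PERK and ATF4 branch (7 members) had fold changes of either sign. Its median log2 fold change was -0.22, with 3 members above 0 and 4 below. Against 4.33% and 3.07% of all genes, the branch had 0 higher and 1 lower at an unadjusted p under 0.05. In the fit without Ctrl replicate 1 it had 2 lower and a median of -0.26. On TPM the median was -0.08 and by voom -0.13, and without Ctrl replicate 3 it was 0.01, where the sign turned, with 0 lower in these 3 fits. Whether the branch differs from the chaperones was not tested. *Atf4* (ENSMUSG00000042406, chromosome 15), the transcription factor whose translation is raised by phosphorylated eIF2α, had an FPKM of 109, 121 and 115 in Ctrl islets and 97.1, 117 and 84.5 in cKO islets. The groups overlapped through cKO replicate 2, and the other cKO samples were the lowest of the 6. The log2 fold change was -0.22 ± 0.134 (SE, limma unadjusted p = 0.150). *Ddit3* (ENSMUSG00000025408, chromosome 10), which encodes CHOP, the factor tied to cell death in lasting ER stress, had an FPKM of 18.6, 16.7 and 16.9 in Ctrl islets and 17.35, 23.5 and 13.7 in cKO islets. The Ctrl samples were close together, and the cKO samples lay above, below and among them. The difference on the log2 scale was 0.03 ± 0.183 (SE, limma unadjusted p = 0.8715).

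*Asns* (ENSMUSG00000029752, chromosome 6), the amino acid response gene that encodes asparagine synthetase, had an FPKM of 24.9, 38.8 and 41.98 in Ctrl islets and 26.1, 23.5 and 24.2 in cKO islets. Ctrl replicate 1 lay at the level of the cKO samples, and Ctrl replicates 2 and 3 far above them. On the log2 scale the change was -0.47 ± 0.193 (SE, limma unadjusted p = 0.0475). The value was -0.69 without Ctrl replicate 1 (limma unadjusted p = 3.61e-04) and -0.33 without Ctrl replicate 3 (limma unadjusted p = 0.151). The call was lost with any other sample left out, on TPM (-0.34, limma unadjusted p = 0.117) and by voom (-0.40, limma unadjusted p = 0.0572), with the direction kept. *Trib3* (ENSMUSG00000032715, chromosome 2), a pseudokinase induced by ATF4 and CHOP, had an FPKM of 1.73, 4.13 and 5.18 in Ctrl islets and 1.955, 1.73 and 1.98 in cKO islets. Ctrl replicate 1 was the lowest of the 6 samples, close to the cKO samples, and the other Ctrl samples lay above all of them, at 64 to 183 reads per sample. That is a log2 fold change of -0.61 ± 0.297 (SE, limma unadjusted p = 0.0806). It was -0.96 without Ctrl replicate 1 (limma unadjusted p = 6.33e-04) and -0.37 without Ctrl replicate 3 (limma unadjusted p = 0.251). *Chac1* (ENSMUSG00000027313, chromosome 2), a glutathione-degrading enzyme and ATF4 target, had an FPKM of 4.34, 9.44 and 22.8 in Ctrl islets and 10.05, 5.165 and 5.81 in cKO islets. The Ctrl samples spanned the whole range, with replicate 1 the lowest and replicate 3 the highest of the 6. The log2 fold change was -0.51 ± 0.535 (SE, limma unadjusted p = 0.379). It was -1.03 without Ctrl replicate 1 (limma unadjusted p = 0.0645) and 0.05 without Ctrl replicate 3 (limma unadjusted p = 0.899). *Ppp1r15a*, the phosphatase subunit GADD34 that reverses the phosphorylation of eIF2α, had 0.15 ± 0.198 (SE, limma unadjusted p = 0.474). *Sesn2*, a stress-induced regulator of growth signalling, had 0.10 ± 0.242 (SE, limma unadjusted p = 0.701).

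Within Ctrl, the sample with the highest median of the chaperones had the lowest median of this branch, and the sample with the lowest chaperone median the highest. Not every gene followed this order: among the Ctrl samples *Ddit3* and *Ppp1r15a* were highest in replicate 1, and *Atf4* in replicate 2. The median deviation of the 7 was -0.21, 0.18 and 0.38 in Ctrl and -0.12, -0.09 and -0.26 in cKO. Ctrl replicate 3, the lowest sample for 10 of 11 chaperones, was the highest for 4 of these 7 genes, and Ctrl replicate 1 was the lowest for 3. The summed FPKM of the branch was 200.1, 229 and 249.6 in Ctrl islets and 198, 225 and 171 in cKO islets. This is a description of 3 samples, without a test.

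The remaining 3 members sit in the ER membrane or its translocation channel. Of these, 2 passed as higher at an unadjusted p under 0.05, against 4.33% of all genes, and the median log2 fold change was 0.31. Without Ctrl replicate 1 there were 2 with a median of 0.37, without Ctrl replicate 3 there were 0 with 0.25, and on TPM 2 with 0.45. With the acinar covariate there were 0 with 0.31. *Wfs1* (ENSMUSG00000039474, chromosome 5) encodes wolframin, which restrains ATF6 signalling and is mutated in Wolfram syndrome. Its FPKM was 36.9, 33.8 and 31.2 in Ctrl islets and 44.8, 44.6 and 37.65 in cKO islets. The groups did not overlap, with cKO replicate 3 just above Ctrl replicate 1. This gave a log2 fold change of 0.31 ± 0.106 (SE, limma unadjusted p = 0.0245), with 0.25 (limma unadjusted p = 0.06715) without Ctrl replicate 3, and it passed in 2 of 6 cases, those without Ctrl replicate 1 and without cKO replicate 3. *Ssr1* (ENSMUSG00000021427, chromosome 13), the α subunit of the translocon-associated protein complex that helps preproinsulin enter the ER, had an FPKM of 22.4, 17.01 and 15.9 in Ctrl islets and 23.5, 24.7 and 23.9 in cKO islets. The cKO samples were nearly equal and Ctrl replicate 1 was just below them. The difference on the log2 scale was 0.38 ± 0.131 (SE, limma unadjusted p = 0.0252). With Ctrl replicate 1 left out it had 0.52 (limma unadjusted p = 6.92e-04), and without Ctrl replicate 3 it had 0.29 (limma unadjusted p = 0.07395). With any sample but Ctrl replicate 1 left out, the call was lost. *Sec61b*, a subunit of the translocation channel, had 0.08 ± 0.125 (SE, limma unadjusted p = 0.541).

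Each of the 9 higher members was also set beside the acinar markers. The mean log2(FPKM + 1) of the 12 acinar markers was 9.81, 10.3 and 8.99 in Ctrl and 11.1, 9.22 and 10.9 in cKO. With this level as a covariate, an alternative chosen after seeing the data, 2 members (5.41%) were higher at an unadjusted p under 0.05 and 0 lower. This share is near that of all genes in the same fit, 3.64% (772). The median of the members was 0.18, against -0.02 over all genes, with 30 of 37 above 0. The 2 were *Edem1*, with a log2 fold change of 0.41 (limma unadjusted p = 0.0162), and *Derl3*, with 0.59 (limma unadjusted p = 0.0216). The other 7 kept their sign, with log2 fold changes from 0.24 (*Sel1l*, limma unadjusted p = 0.127) to 0.37 (*Ssr1*, limma unadjusted p = 0.0645). Among these *Atf6* had the smallest p, with a log2 fold change of 0.29 (limma unadjusted p = 0.0501). The covariate also costs 1 degree of freedom of the 6 samples.

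Genes of the same pathways outside the list were counted in the same fit, at an unadjusted p under 0.05. With Benjamini-Hochberg adjustment limma called 0 of them in each list, beside the counts given here. They can be read against 4.33% higher and 3.07% lower among all genes. In the other fits these shares were 8.49% higher and 1.5% lower on TPM, and 7.07% and 1.55% by voom. They were 5.90% and 5.53% without Ctrl replicate 1, and 3.82% and 4.04% without Ctrl replicate 3. With the acinar covariate they were 3.64% and 2.37%. Translocation into the ER and removal of the signal peptide (20 genes) had 2 higher and 0 lower, with a median log2 fold change of 0.16. With Ctrl replicate 3 left out it had 1 higher and 1 lower with a median of 0.01, and with the acinar covariate 1 higher with a median of 0.08. It had 6 higher with a median of 0.26 without Ctrl replicate 1, and 7 with 0.30 on TPM. *Srpr*, the receptor of the signal recognition particle, had an FPKM of 124, 131 and 115 in Ctrl islets and 155, 144 and 168 in cKO islets. Its groups did not overlap, and the log2 fold change was 0.33 ± 0.102 (SE, limma unadjusted p = 0.01565). *Sec63*, the partner of the channel that recruits BiP, had 15.75, 13.95 and 13.1 in Ctrl islets and 18.4, 16.6 and 17.3 in cKO islets. Its groups did not overlap either, with 0.27 ± 0.0935 (SE, limma unadjusted p = 0.0248). N-glycosylation and glycan trimming (19 genes) had 1 higher and 0 lower, near the share of all genes, with a median of 0.16. Leaving out Ctrl replicate 3 gave 1 higher and 1 lower with a median of 0.09, and with the acinar covariate 0 higher with a median of 0.08. In the fit without Ctrl replicate 1 it was 2 higher with a median of 0.14, and on TPM 7 with 0.30. *Alg2*, a mannosyltransferase that builds the glycan precursor, had an FPKM of 31.7, 32.2 and 28.4 in Ctrl islets and 41.05, 37.8 and 35.4 in cKO islets. Each cKO sample lay above each Ctrl sample, and the log2 fold change was 0.30 ± 0.0914 (SE, limma unadjusted p = 0.0150).

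Other ER folding factors (27 genes) had 4 higher and 0 lower, with a median of 0.07. With Ctrl replicate 3 left out it had 1 higher with a median of -0.0041, and with the acinar covariate 2 higher with a median of 0.05. Without Ctrl replicate 1 and on TPM it had 5 higher, with medians of 0.10 and 0.20. *Fkbp11*, a prolyl isomerase of secretory cells, had an FPKM of 14.9, 13.4 and 11.2 in Ctrl islets and 18.9, 17.1 and 25.7 in cKO islets. *Qsox1*, a sulfhydryl oxidase, had 8.945, 11.6 and 8.03 in Ctrl islets and 15.2, 11.7 and 14.5 in cKO islets. In both the groups did not overlap, by a narrow margin for *Qsox1*. Their log2 fold changes were 0.60 ± 0.171 (SE, limma unadjusted p = 0.0117) and 0.50 ± 0.1565 (SE, limma unadjusted p = 0.01695). *Prdx4*, the peroxiredoxin of the ER, had 14.6, 12.1 and 11.2 in Ctrl islets and 15.1, 17.01 and 15.9 in cKO islets. *Txndc5*, a disulfide isomerase, had 42.4, 36.04 and 30.3 in Ctrl islets and 45.1, 44.5 and 48.2 in cKO islets. Neither overlapped, with Ctrl replicate 1 the closest to the cKO samples, and the log2 fold changes were 0.32 ± 0.114 (SE, limma unadjusted p = 0.0273) and 0.35 ± 0.129 (SE, limma unadjusted p = 0.0336). Other genes of ER-associated degradation (25 genes) had 2 higher and 0 lower, with a median of 0.12. Without Ctrl replicate 3 and with the acinar covariate it had 1 higher, with medians of 0.08 and 0.10. With Ctrl replicate 1 left out it had 2 higher and 1 lower with a median of 0.10, and on TPM 11 higher with 0.26. Both higher genes are relatives of *Edem1*. *Edem2* had an FPKM of 36.7, 41.3 and 29.9 in Ctrl islets and 51.2, 46.7 and 46.3 in cKO islets. For *Edem3* it was 16.7, 12 and 12.6 in Ctrl islets and 17.6, 17.8 and 18.2 in cKO islets. The groups overlapped in neither, and the log2 fold changes were 0.42 ± 0.128 (SE, limma unadjusted p = 0.01495) and 0.36 ± 0.128 (SE, limma unadjusted p = 0.0271). Export from the ER and retrieval to it (19 genes) had 4 higher and 0 lower, with a median of 0.16. Leaving out Ctrl replicate 3 gave 1 higher and 1 lower with a median of 0.11, and with the acinar covariate 2 higher with a median of 0.12. In the fit without Ctrl replicate 1 it had 6 higher with a median of 0.21, and on TPM 10 with 0.29. *Lman1*, a cargo receptor for glycoproteins, had an FPKM of 53.75, 46.3 and 42.4 in Ctrl islets and 62.3, 57.3 and 62.1 in cKO islets. *Mcfd2*, its partner, had 34.1, 25.02 and 24.3 in Ctrl islets and 35.8, 39.9 and 34.8 in cKO islets. *Surf4*, a cargo receptor for soluble proteins, had 123, 122 and 105 in Ctrl islets and 144, 134 and 134 in cKO islets. In these 3 the groups did not overlap, and the log2 fold changes were 0.35 ± 0.107 (SE, limma unadjusted p = 0.0149), 0.41 ± 0.143 (SE, limma unadjusted p = 0.0264) and 0.24 ± 0.0997 (SE, limma unadjusted p = 0.0494). *Sec24d*, a coat subunit, had a log2 fold change of 0.47 with groups that overlapped at Ctrl replicate 1. With 1 sample left out, *Alg2*, *Fkbp11* and *Lman1* passed in 6 of 6 cases, *Srpr* and *Edem2* in 5, and the others of these lists in 1 or 2. With the acinar covariate *Srpr*, *Fkbp11*, *Qsox1*, *Edem2*, *Mcfd2* and *Sec24d* passed, and 7 calls were lost. The log2 fold changes of these 7 kept their sign: *Sec63* (0.27 to 0.23, limma unadjusted p = 0.0881), *Alg2* (0.30 to 0.26, limma unadjusted p = 0.0557), *Prdx4* (0.32 to 0.34, limma unadjusted p = 0.0572), *Txndc5* (0.35 to 0.28, limma unadjusted p = 0.105), *Edem3* (0.36 to 0.37, limma unadjusted p = 0.0645), *Lman1* (0.35 to 0.29, limma unadjusted p = 0.05335) and *Surf4* (0.24 to 0.19, limma unadjusted p = 0.145).

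Other targets of ATF4 (33 genes, 32 tested) had 1 higher and 5 lower, with a median of -0.20. On TPM 3 were lower and the median was -0.07, and by voom 5 were lower and it was -0.12. *Psat1*, an enzyme of serine synthesis, had an FPKM of 2.86, 3.68 and 3.38 in Ctrl islets and 1.11, 1.64 and 1.95 in cKO islets. *Phgdh*, the enzyme of the step before it, had 7.01, 10.25 and 7.45 in Ctrl islets and 5.175, 4.095 and 5.98 in cKO islets. *Shmt2*, which passes carbon from serine to folate in mitochondria, had 10.7, 9.98 and 11.8 in Ctrl islets and 8.20, 7.36 and 6.79 in cKO islets. In these 3 all cKO samples lay below all Ctrl samples, Ctrl replicate 1 included. Their log2 fold changes were -0.76 ± 0.160 (SE, limma unadjusted p = 0.00266), -0.60 ± 0.176 (SE, limma unadjusted p = 0.0129) and -0.49 ± 0.104 (SE, limma unadjusted p = 0.00272). All 3 passed in 6 of 6 cases with 1 sample left out, on TPM and with the acinar covariate. *Cars*, which charges the cysteine tRNA, had an FPKM of 6.63, 8.015 and 10.9 in Ctrl islets and 6.36, 5.66 and 4.955 in cKO islets. Its groups did not overlap, and the log2 fold change was -0.50 ± 0.179 (SE, limma unadjusted p = 0.0298), which passed in 2 of 6 cases with a sample left out. The other lower gene was *Vldlr*, a lipoprotein receptor (-0.50), and the higher one *Cth*, an enzyme of cysteine synthesis (0.46), at a mean FPKM of 0.622 in Ctrl. Without Ctrl replicate 1, 14 of the 32 were lower and 0 higher, with a median of -0.19, where 5.53% of all genes were lower. Without Ctrl replicate 3, 3 were lower and 0 higher, with a median of -0.10, and with the acinar covariate 3 were lower and 0 higher, with a median of -0.15. The kinases of eIF2, eIF2 and eIF2B (13 genes) had 0 in either direction, with a median of -0.06 on FPKM, and 1 higher with a median of 0.07 on TPM.

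The ATF6 and CREB3 family with its proteases (10 genes, 9 tested) had 0 higher and 0 lower, with a median of 0.11 (1 higher with 0.25 on TPM). Among 7 RNAs reported as cut by IRE1, with a median of 0.28, 1 was higher. This was the collagen gene *Col6a1*, with an FPKM of 2.11, 1.67 and 2.02 in Ctrl islets and 2.34, 6.999 and 6.06 in cKO islets. cKO replicates 2 and 3 were far above the other samples, and the log2 fold change was 0.97 ± 0.326 (SE, limma unadjusted p = 0.0225), which passed in 1 of 6 cases. This list had 0 higher without Ctrl replicate 3, 2 with the acinar covariate and 3 on TPM. Markers of stroma, which makes this collagen, summed to 12.5, 4.76 and 8.08 in Ctrl islets and 8.45, 30.03 and 33.03 in cKO islets, and their part in it was not tested. ER calcium (9 genes, 8 tested) had 0 in either direction, with a median of -0.03 on FPKM and 0.10 on TPM, and 1 higher with a median of 0.02 without Ctrl replicate 3. For stress outside the ER, the cytosolic heat shock list (10 genes) had 1 higher and 0 lower and a median of -0.15 (-0.02 on TPM). Without Ctrl replicate 3 the counts turned to 0 higher and 4 lower, with a median of -0.44, where 4.04% of all genes were lower in that fit, and without Ctrl replicate 1 there were 1 higher and 0 lower, with a median of -0.03. The higher gene was *Hspb1*, a small heat shock protein, with an FPKM of 11.6, 6.84 and 7.23 in Ctrl islets and 11.65, 13.8 and 13.2 in cKO islets. Ctrl replicate 1 lay just below the lowest cKO sample, and the log2 fold change was 0.57 ± 0.191 (SE, limma unadjusted p = 0.0221), which passed in 2 of 6 cases. Mitochondrial chaperones and proteases (7 genes) had 0 in either direction (median -0.10), 2 higher on TPM (median 0.04), and 1 lower without Ctrl replicate 1 or without Ctrl replicate 3. The immediate early genes that islet isolation can induce (11 genes) had 0 in either direction as well, with a median of -0.07, and 1 higher with a median of 0.07 on TPM. With the acinar covariate 3 of these were higher, with a median of 0.13.

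Promoters were searched for the elements known to bind the factors of the response, since the list covers the arms these factors serve. The sequences are RefSeq promoters on GRCm38.p6, from 250 bases before to 50 after the start of each gene, and 33 of the 37 members matched, with 34 promoters. *Hyou1*, *Manf*, *Derl1* and *Atf6* have no entry. The elements were read on both strands: the ER stress response element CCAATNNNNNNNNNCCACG, its second form ATTGGNCCACG, the UPR element TGACGTGG, and the ATF4 composite element TGATGNAA. The first 2 share the end CCACG, whose reverse complement ends the UPR element, so matches can overlap. A match is a description of letters, not a site in use.

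The ER stress response element was found in 39 of 32851 promoters (0.119%) and in those of 10 members: *Hspa5*, *Hsp90b1*, *Calr*, *Canx*, *Creld2*, *Dnajc3*, *Pdia6*, *Ero1lb*, *Syvn1* and *Derl3*. The second form was in 12 promoters (0.0365%), those of *Herpud1* and *Dnajb11* among them. The UPR element was in 222 promoters (0.676%) and in 0 members. The ATF4 composite element was in 1304 promoters (3.97%) and in 4 members, *Asns*, *Chac1*, *Trib3* and *Herpud1*. The list was chosen for these pathways, so these shares were not tested. The 10 members with the ER stress response element had a median log2 fold change of 0.22, from -0.02 (*Ero1lb*) to 0.74 (*Derl3*), and 2 of them passed as higher. The 21 members whose promoter held neither form had a median of 0.25, with 5 higher and 1 lower. The 4 members with the ATF4 composite element had a median of -0.49, from -0.61 to -0.11, with 1 lower and 0 higher. On TPM *Herpud1* was at 0.02. Among all genes, on FPKM, 4.33% were higher and 3.07% lower.

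To show the elements, windows are printed for *Calr* and *Derl3*, the 2 higher members that hold the ER stress response element, for *Ero1lb*, which holds it and had the lowest log2 fold change of the 10, and for *Herpud1* and *Chac1*, with the second form and the ATF4 element. Each runs 5′ to 3′ on the strand of its gene, with the match in capitals and up to 30 bases on either side, and lies outside the span of the gene in the deposited table. In *Calr*, *Derl3*, *Ero1lb* and *Chac1* the capitals are the reverse complement of the element.
Calr chr8:84847045-84847123 minus strand: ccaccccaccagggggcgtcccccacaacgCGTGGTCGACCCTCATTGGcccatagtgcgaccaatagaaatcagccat
Derl3 chr10:75893212-75893290 plus strand: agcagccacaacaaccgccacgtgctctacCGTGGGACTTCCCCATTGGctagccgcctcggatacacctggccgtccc
Ero1lb chr13:12565652-12565730 plus strand: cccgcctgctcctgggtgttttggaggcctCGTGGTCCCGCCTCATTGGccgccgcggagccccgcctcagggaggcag
Herpud1 chr8:94386347-94386417 plus strand: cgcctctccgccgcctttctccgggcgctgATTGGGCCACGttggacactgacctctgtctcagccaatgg
Chac1 chr2:119351019-119351086 plus strand: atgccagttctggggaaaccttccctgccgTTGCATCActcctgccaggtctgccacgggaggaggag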

How the data were processed

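RNA was measured in 3 Ctrl and 3 cKO islet samples, grouped by the labels of the authors. The authors deposited FPKM, scaled by length and library, for each gene and replicate, and compared the genotypes with DESeq2; the aligner, the counting tool and the annotation release are not given in the sources used here. In each sample the products of FPKM and gene length were multiples of a fixed step, from which reads were read back for depth and alternatives. Genes whose mean FPKM reached 0.1 were compared on log2(FPKM + 1) by two-sided moderated linear models with a mean-variance trend (limma 3.58.1 under R 4.3.3), and p-values were adjusted over all of them by Benjamini-Hochberg. Summaries, promoter searches and figures were made with Python 3.11.15, numpy 2.4.6, pandas 2.3.3 and matplotlib 3.10.9. The code was tested on simulated data.

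The members and lists were chosen with earlier results of these data known, so no test over the list was made. Values in every sample are given for *Hspa5*, *Xbp1*, *Ern1*, *Eif2ak3*, *Atf6*, *Atf4* and *Ddit3*, for members at an unadjusted p under 0.05, and for the 5 largest rises and 5 largest falls at a mean FPKM of at least 1. From each pathway list, the genes at an unadjusted p under 0.05 without overlap are given, at most the 4 with the smallest p. The other genes named, *P4hb*, *Pdia4*, *Derl1*, *Vldlr*, *Cth*, *Sec24d*, *Ins2*, *Iapp* and *G6pc2* among them, were chosen after their values were seen.

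Alternatives were a pseudocount of 0.1, no filter, a mean FPKM of at least 1, no trend, TPM with and without *Ins1* and *Ins2*, median ratio scaling, sample weights, voom on the reads read back, a replicate block, and leaving out each sample. Voom with the library sizes of the authors and the acinar covariate were chosen after seeing the data. The median ratio factor was 1.004 in every sample, so that alternative was no test of the scaling.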

Additional observations from a re-analysis of the deposited data

How the results depend on the processing

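With Benjamini-Hochberg adjustment, limma called 0 members in every alternative run. On TPM, 1801 genes were higher and 315 lower at an unadjusted p under 0.05, 16 members were higher and 0 lower, and the members' median was 0.39. Voom on the reads read back gave 1500 and 328 genes and 14 and 0 members. Sample weights gave 1267 higher and 1245 lower genes, and 12 higher and 2 lower members. With the acinar covariate, chosen after seeing the data, 2 members were higher and 0 lower. The lower member was also lost, at 0, with no filter on low values, with no trend, on TPM without *Ins1* and *Ins2*, and with a replicate block. The block pairs samples by number, and whether same-numbered samples belong together is not given in the labels. Deviations of same-numbered samples had r of -0.17, -0.02 and -0.07 across genes. These deviations are centred within 3 samples per genotype, so they cannot decide whether samples are paired. The block gave 8 members higher. Leaving out 1 sample at a time gave 709 to 1251 higher and 402 to 1173 lower genes, 3 to 14 higher and 0 to 2 lower members, and a median of 0.11 to 0.32. The cause of these differences was not tested. At 64 reads, counting error limits *Trib3* most. No member that passed changed sign under any alternative.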
